A study of Mus musculus with 8 samples.

Results

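The Schlafen genes are a family of 7 rows (*Slfn1*, *Slfn2*, *Slfn3*, *Slfn4*, *Slfn5*, *Slfn8* and *Slfn9*) among the 22520 genes and assembled transcripts of the deposited table. They are defined by their symbols, a rule that uses no measured value. Bulk RNA-seq was performed on 8 libraries of CD8+ T cells, purified by negative selection from the spleens of wild-type mice and kept under persistent stimulation with anti-CD3 and anti-CD28 antibodies and IL-2. From day 3 to day 6 the cells received either 40 µM diisopropylamine dichloroacetate (DADA), an inhibitor of pyruvate dehydrogenase kinase, or the solvent DMSO, with 4 libraries in each group (titled Ctrl and DADA, and marked control and model under genotype although no genetic difference is described). The libraries are called biological replicates, but which mice they came from is not given, so the p-values measure the spread between these libraries. The C57BL/6J mice of the study were males of 6 to 8 weeks, although its methods do not tie a strain, sex or age to these cultures. As a culture model, the cells were exhausted in vitro by antibody stimulation and by no tumor or pathogen.

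Schlafen proteins take their name from the German word for sleep, since the first members were found to slow the growth of thymocytes and T cells. The mouse genes sit side by side and fall into short members (*Slfn1* and *Slfn2*), intermediate members (*Slfn3* and *Slfn4*) and long members with a helicase-like C-terminal part (*Slfn5*, *Slfn8* and *Slfn9*). Many are induced by type I interferon, and several bind or cleave transfer RNA. In T cells, *Slfn2* is the best known, because mice without its function lose T cell quiescence.

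Values are in FPKM, fragments per kilobase of transcript scaled to the mapped fragments of the library, so levels of different genes are compared per length. Changes were tested with limma on log2(FPKM + 1) over 10666 genes (1 FPKM or more in 4 or more libraries), and a gene was called at a Benjamini-Hochberg adjusted p under 0.05. Of the 7 members, 6 passed this filter, and *Slfn4* was fitted without it, among 16167 genes. Of the 6, 5 were higher with DADA, none was lower and *Slfn9* was not called, where 66.2% of all genes tested were called, 30.9% as higher and 35.3% as lower. *Slfn1*, *Slfn2*, *Slfn5* and *Slfn8* rose by at least 1 on the log2 scale, as did 3.56% of all genes tested. *Slfn5* passed the filter only through its 4 DADA libraries, so it had to differ. Both the count of 5 and the members that rose by at least 1 include it. The mapped depth, estimated from the steps between low values, was 13670000 to 16370000 fragments with DMSO and 15110000 to 18650000 with DADA. All 7 CD8+ T cell markers that could be tested were higher with DADA, among them *Cd8a* (126 FPKM on average in the DMSO group, 154 in the DADA group) and *Cd8b1* (151 and 193), and the part of this in the Schlafen values was not tested. In the fit without the filter, where 24.8% of genes were called higher, 1 of 5 B cell markers was higher and 0 lower. This was *Ebf1* (mean 0.255 FPKM with DMSO, 1.10 FPKM with DADA), and its part in the Schlafen values was not tested. Of 5 natural killer cell markers, 1 was higher and 1 lower. The summed markers of B cells were at 2.78 to 3.78 FPKM with DMSO and 3.23 to 4.40 FPKM with DADA. Those of natural killer cells and erythroid cells each stayed at or under 1.05 FPKM in every library. Those of dendritic cells were at 3.76 to 4.82 FPKM with DMSO and 1.96 to 2.53 FPKM with DADA, mostly *Zbtb46*, which was called lower (log2 fold change -0.77, limma adjusted p = 1.43e-05), and their part in the Schlafen values was not tested. Those of CD4+ T cells were at 16.3 to 17.4 FPKM with DMSO and 15.3 to 15.8 FPKM with DADA, nearly all from *Zbtb7b* (mean 16.4 and 15.0 FPKM). *Cd4*, *Cd40lg* and *Foxp3* each stayed under 1 FPKM in every library. In bulk RNA, fewer cells that express a gene and less RNA per cell cannot be told apart.

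**Figure D1:**
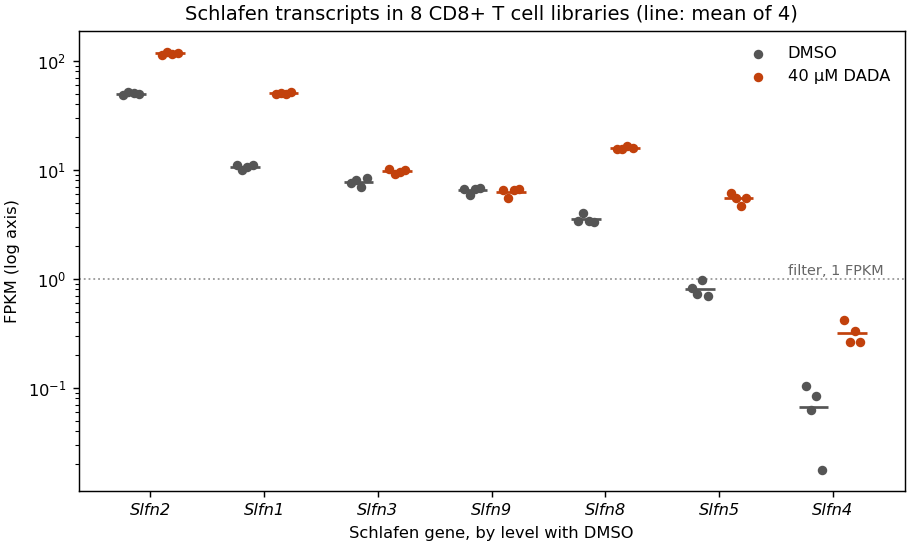
FPKM of the 7 Schlafen genes (log axis) in the 4 DMSO (grey) and 4 DADA (orange) libraries, with a line at the mean of each group and a dotted line at the filter of 1 FPKM. The groups separate, with DADA higher, for every gene but *Slfn9*, as they do for 28.4% of all genes tested (23.2% without the filter). *Slfn5* passed the filter only through its DADA libraries, and *Slfn4* did not pass it. *Slfn2* is the most abundant member in both groups, at a mean of 50.1 and 117 FPKM.

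Among the short members, *Slfn2* (ENSMUSG00000072620), which guards T cell quiescence and shields transfer RNA from the ribonuclease angiogenin, was by far the most abundant. It was at 48.6, 52.0, 50.6 and 49.4 FPKM in DMSO libraries 1 to 4 and at 112, 120.2, 117 and 119 FPKM in DADA libraries 1 to 4. Every DADA library was thus above every DMSO library, which was so, in this direction, for 28.4% of all genes tested. The mean rose from 50.1 ± 1.47 to 117 ± 3.47 FPKM (SD, n = 4 each), 2.33 times (log2 fold change 1.21 ± 0.0296 SE, limma adjusted p = 3.61e-10). *Slfn1* (ENSMUSG00000078763), the founding member, was at 10.97, 9.99, 10.6 and 10.97 FPKM with DMSO and at 49.7, 50.6, 49.7 and 51.7 FPKM with DADA. Again the groups did not overlap, and the mean rose 4.74 times, from 10.6 ± 0.461 to 50.4 ± 0.954 FPKM (SD, n = 4 each). Its log2 fold change, 2.14 ± 0.0340 (SE; limma adjusted p = 2.46e-11), was the highest of the family on this scale and ranked 71 among the 10666 genes tested. *Slfn1* and *Slfn2* each have 1 annotated transcript, and the estimated depth put about 271 to 305 fragments per library on *Slfn1* with DMSO and 1150 to 1415 on *Slfn2*. An antisense gene, *Gm20234*, overlaps *Slfn2*, and the strand setting of the counting is not given in the sources used here. Reads from where the pair overlaps may therefore not be told apart.

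The intermediate members differed in level rather than in direction. *Slfn3* (ENSMUSG00000018986), studied mainly in regulatory T cells and gut epithelium, was at 7.52, 8.06, 7.03 and 8.42 FPKM with DMSO and at 10.3, 9.12, 9.47 and 10.0 FPKM with DADA. The groups lay close to each other without overlap, and the rise was small, from 7.76 ± 0.612 to 9.73 ± 0.530 FPKM (SD, n = 4 each; log2 fold change 0.29 ± 0.0580 SE, limma adjusted p = 0.00127). *Slfn4* (ENSMUSG00000000204), which is known from macrophages and other myeloid cells, stayed under 1 FPKM in every library. It was listed at 0.104, 0.0622, 0.0843 and 0.0177 FPKM with DMSO and at 0.423, 0.262, 0.329 and 0.261 FPKM with DADA. At the estimated depth, these values rest on about 1 to 6.1 fragments per DMSO library and 19.2 to 29.4 per DADA library. Fitted without the filter, where 24.8% of genes were called higher, *Slfn4* rose by 0.30 ± 0.0434 (log2, SE; limma adjusted p = 4.93e-04). All its DADA values exceeded all its DMSO values, as for 23.2% of genes in that fit, and at a pseudocount of 0.1 the change was 1.34. Of 14 myeloid markers, 13 stayed under 1 FPKM in every library and 6 were at 0 throughout, among them *Csf1r*, *Adgre1* and *S100a8*. Their summed level was 3.53 to 3.99 FPKM with DMSO and 5.53 to 6.05 FPKM with DADA, most of it from *Cd68*. The fit without the filter held 8 of these markers, with 3 called higher and 0 lower. These were *Cd68*, *Mpeg1* (mean 0.0192 FPKM with DMSO, 0.173 FPKM with DADA) and *Itgam* (0.00433 and 0.0282 FPKM). The part of myeloid markers in the *Slfn4* values was not tested.

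Among the long members, *Slfn5* (ENSMUSG00000054404), a nuclear protein induced by interferon, stayed under 1 FPKM with DMSO. Its values were 0.825, 0.723, 0.983 and 0.694 FPKM with DMSO and 6.10, 5.52, 4.70 and 5.54 FPKM with DADA. The ratio of the means, 6.78, was the highest of the 6 members that passed the filter, whereas its log2 fold change (1.84 ± 0.0791 SE, limma adjusted p = 2.34e-08) was lower than that of *Slfn1*, because the added 1 FPKM weighs most on low values. With a pseudocount of 0.1 it was 2.62. *Slfn5os*, on the opposite strand, overlaps *Slfn5* and could share its reads. *Slfn8* (ENSMUSG00000035208), a helicase-like member, was at 3.39, 4.03, 3.40 and 3.32 FPKM with DMSO and at 15.5, 15.7, 16.6 and 15.8 FPKM with DADA. The groups were far apart, and the mean rose from 3.53 ± 0.333 to 15.9 ± 0.509 FPKM (SD, n = 4 each; log2 fold change 1.90 ± 0.0543 SE, limma adjusted p = 1.12e-09). *Slfn9* (ENSMUSG00000069793), which lies next to *Slfn8* and resembles it in structure, was at 6.66, 5.91, 6.70 and 6.87 FPKM with DMSO and at 6.54, 5.46, 6.58 and 6.72 FPKM with DADA. These ranges overlapped almost fully. Its log2 fold change was -0.04 (95% confidence interval -0.19 to 0.11, limma, adjusted p = 0.589; exact permutation test, p = 0.514), and without DADA 2 it turned to 0.02.

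The other rows with a Schlafen name were near 0. *Slfn14* was above 0 in 1 library, at 0.0168 FPKM in DMSO 2. *Slfnl1*, a more distant relative on another chromosome, was above 0 in 2 libraries and reached at most 0.0622 FPKM. The pseudogene *Slfn10-ps* had no row under that symbol, so its level is not given.

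In both groups *Slfn2* led the order of levels. With DMSO the order per length was *Slfn2*, *Slfn1*, *Slfn3*, *Slfn9*, *Slfn8*, *Slfn5* and *Slfn4*, and no neighbours in it overlapped in range. The closest pair was *Slfn3* and *Slfn9*, whose means differed 1.19 times. With DADA, *Slfn8* moved above *Slfn3* and *Slfn9*, and only *Slfn9* and *Slfn5* overlapped, at 5.46 to 6.72 and 4.70 to 6.10 FPKM, with *Slfn9* higher in 3 of 4 libraries. The summed FPKM of the 7 members was 78.0 to 80.7 with DMSO and 200.8 to 209 with DADA. *Slfn2* made up a mean of 63.1% of this sum with DMSO and 57.0% with DADA, and *Slfn1* 13.4% and 24.6%. The share of *Slfn9* was 8.23% with DMSO and 3.08% with DADA, and that of *Slfn3* 9.76% and 4.74%. Thus *Slfn1* and *Slfn2* together held most of the family's transcripts in either group.

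**Figure D2:**
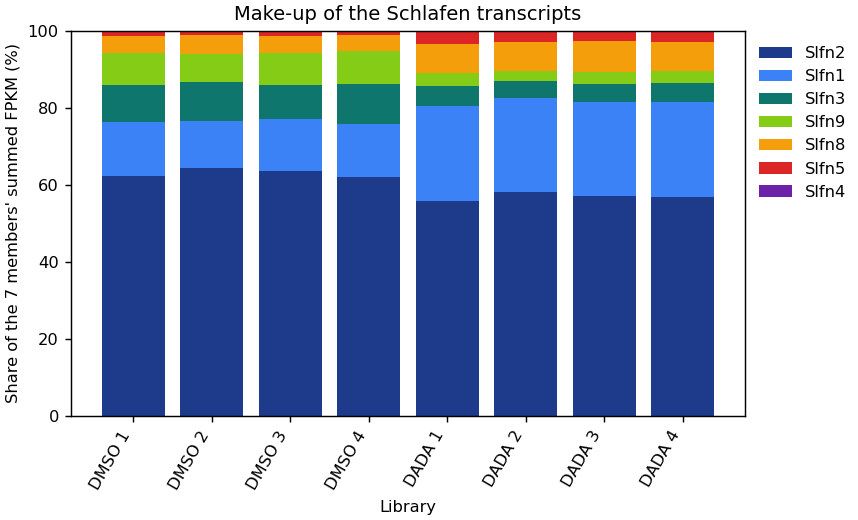
Share of each member (color) in the summed FPKM of the 7 Schlafen genes, 1 bar per library. *Slfn1* takes 12.4% to 14.1% in the DMSO bars and 24.4% to 24.8% in the DADA bars, and *Slfn4* is too low to see.

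Whether members rose by different amounts was tested on the log2 ratio of 2 members in each library, for all 15 pairs of the 6 members that passed the filter, by exact permutation (two-sided, 70 assignments) with Benjamini-Hochberg adjustment over the pairs. The ratio was taken of FPKM + 1, as in the fit, and again of plain FPKM, an alternative chosen after seeing the data. Of the 10 pairs without *Slfn5*, all 10 changed on the first scale (p = 0.0286, the smallest that 4 against 4 libraries allow; adjusted p = 0.0306, exact permutation test). The 5 pairs with *Slfn5*, of which 4 changed, lend no support, since *Slfn5* passed the filter only through its DADA libraries. *Slfn1* rose more than *Slfn9*, by 2.19 (log2, FPKM + 1) or 2.30 (log2, plain FPKM). *Slfn1* also rose more than *Slfn2*, by 0.94 with FPKM + 1 and by 1.02 with plain FPKM, where *Slfn1* was at 0.192 to 0.226 times the level of *Slfn2* with DMSO and at 0.421 to 0.443 times with DADA. *Slfn3* moved more than *Slfn9*, by 0.34 (FPKM + 1). This call was lost without any 1 of DADA 1 to 4, where the change was 0.33, 0.31, 0.37 and 0.35 (adjusted p = 0.0612 in each, exact permutation test). With a library left out, fewer than 70 assignments remain, so the p-values move in coarser steps.

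The order of *Slfn1*, *Slfn5* and *Slfn8* among themselves rested on the scale. Between *Slfn1* and *Slfn5* the change was 0.31 with FPKM + 1, but -0.39 with a pseudocount of 0.1 (adjusted p = 0.0612, exact permutation test) and -0.52 with plain FPKM (adjusted p = 0.0330, exact permutation test). Between *Slfn1* and *Slfn8* it was 0.24, 0.09 and 0.07 on the same 3 scales, called on the first alone (adjusted p = 0.0306, 0.514 and 0.686, exact permutation test). Between *Slfn5* and *Slfn8* it was -0.06, 0.48 and 0.59, called on none (adjusted p = 0.571, 0.0612 and 0.0612, exact permutation test). With FPKM + 1 and a library left out, the call between *Slfn1* and *Slfn5* was lost without any 1 of DMSO 1 to 4, DADA 3 or DADA 4, at 0.25 to 0.35. The call between *Slfn1* and *Slfn8* was lost without DMSO 2, DADA 1, DADA 2 or DADA 4, at 0.16 to 0.24.

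*Slfn8* and *Slfn9* were the most alike in coding sequence of the pairs compared, yet *Slfn8* rose and *Slfn9* was not called. Their coding sequences, both 2730 bases in GENCODE M21, were identical at 92.7% of aligned positions, against 60.4% for *Slfn5* and *Slfn8* and 91.4% for the intermediate pair *Slfn3* and *Slfn4*. The FPKM of *Slfn8* was 0.482 to 0.682 times that of *Slfn9* with DMSO and 2.36 to 2.87 times with DADA, a log2 change of 2.22 in this ratio and of 1.94 in that of FPKM + 1. Near-identical copies can exchange reads when fragments are assigned, so both values are uncertain to that extent. No stretch of 150 bases, the read length, was shared exactly between the longest annotated transcripts of *Slfn8* and *Slfn9*, although 1.55% of such stretches in *Slfn9* also occurred in *Slfn10-ps*. Their deviations were opposite in DMSO 2, which had the highest *Slfn8* and the lowest *Slfn9* of its group. With DMSO the sum of both was 10.1 ± 0.106 FPKM (SD, n = 4), a coefficient of variation of 1.05%, against 9.41% for *Slfn8* and 6.58% for *Slfn9* alone. With DADA, the sum was 22.2 ± 0.884 FPKM and varied by 3.97%, against 3.20% and 9.16%. The part of read exchange in these values was not tested.

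**Figure D3:**
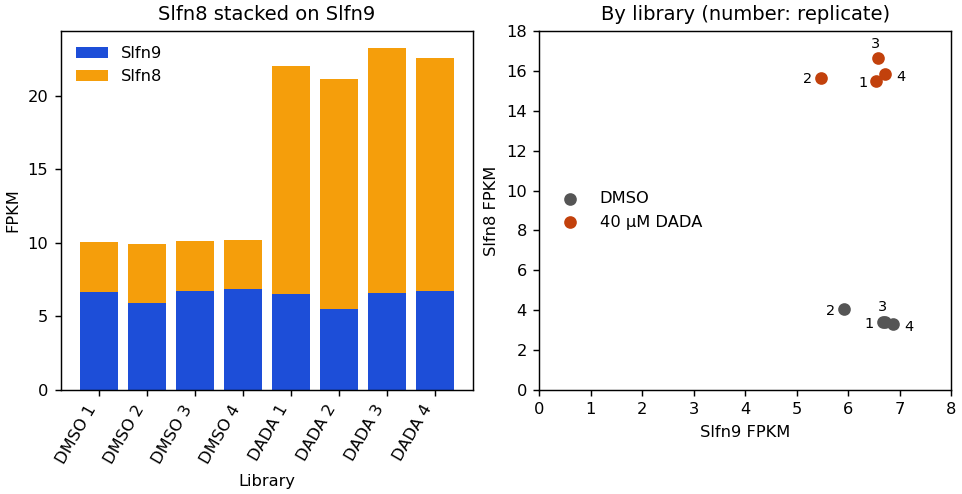
Left, FPKM of *Slfn8* (orange) stacked on *Slfn9* (blue) in each library; right, *Slfn8* against *Slfn9*, grey for DMSO and orange for DADA, numbered by replicate. The blue bars stay between 5.46 and 6.87 FPKM in all 8 libraries while the *Slfn8* part grows from 3.32 to 4.03 FPKM with DMSO to between 15.5 and 16.6 FPKM with DADA.

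The promoters of this pair are shown because they are alike while the transcripts responded differently. RefSeq start sites of all 7 members were matched by symbol (build GRCm38.p6, which is not the GRCm39 that the processing notes list beside GRCh38), and the 250 bases before the start site farthest upstream were read 5′ to 3′. Capitals mark matches, on either strand, to GAAA, any 2 bases and GAAA again, the core of the interferon-stimulated response element.
*Slfn8*, chr11:83020811-83021060, minus strand: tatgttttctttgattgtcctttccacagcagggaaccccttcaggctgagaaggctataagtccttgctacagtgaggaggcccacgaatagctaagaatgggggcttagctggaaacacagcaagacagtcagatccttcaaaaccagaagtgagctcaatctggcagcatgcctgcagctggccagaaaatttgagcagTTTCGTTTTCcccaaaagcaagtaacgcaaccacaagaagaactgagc
*Slfn9*, chr11:82991831-82992080, minus strand: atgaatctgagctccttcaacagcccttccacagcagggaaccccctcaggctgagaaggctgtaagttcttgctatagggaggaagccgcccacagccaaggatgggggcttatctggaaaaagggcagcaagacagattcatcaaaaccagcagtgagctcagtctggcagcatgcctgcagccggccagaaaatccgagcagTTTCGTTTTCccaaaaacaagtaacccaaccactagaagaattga
Over 245 aligned bases the 2 windows were identical at 83.3%. Both held the same letters, TTTCGTTTTC, a reverse-strand match at bases -48 to -39 of *Slfn8* and -45 to -36 of *Slfn9*, counted from the start site. *Slfn5* held another match, GAAAAAGAAA, at -155 to -146. Of 32851 RefSeq promoter windows of this length, 2.98% held such a match. No match was found in the windows of *Slfn1*, *Slfn2*, *Slfn3* and *Slfn4*, which says only that these letters are not in them. TTCNNNGAA, the form of a STAT site, was in 0 of the 7 windows and in 7.02% of all windows.

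The short and intermediate members had another run in common, ACTTCCTGG, the longest run shared by all 4, chosen after the sequences were seen and marked by capitals in the windows of the 2 most abundant members.
*Slfn1*, chr11:83116570-83116819, plus strand: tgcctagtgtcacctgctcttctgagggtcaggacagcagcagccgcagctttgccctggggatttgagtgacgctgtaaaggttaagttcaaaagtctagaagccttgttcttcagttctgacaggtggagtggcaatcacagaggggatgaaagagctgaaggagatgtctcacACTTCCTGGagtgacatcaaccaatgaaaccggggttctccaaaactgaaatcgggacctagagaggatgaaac
*Slfn2*, chr11:83064862-83065111, plus strand: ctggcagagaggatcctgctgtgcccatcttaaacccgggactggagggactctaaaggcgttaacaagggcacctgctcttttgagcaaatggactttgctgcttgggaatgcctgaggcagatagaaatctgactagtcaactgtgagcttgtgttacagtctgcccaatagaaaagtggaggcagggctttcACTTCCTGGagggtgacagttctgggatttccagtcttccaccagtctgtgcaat
The run began at base -74 in *Slfn1*, -55 in *Slfn2*, -42 in *Slfn3* and -73 in *Slfn4*, was in none of the 3 long members, and was in 0.700% of all windows on either strand. It contains GGAA on the reverse strand, the core letters of ETS family sites, and no factor binding was measured. Members with the run changed by 0.29 to 2.14 on the log2 scale, with *Slfn4* taken from the fit without the filter. The part of the run in these changes was not tested.

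On chromosome 11 the order in GENCODE M21 is *Slfn5*, *Slfn9*, *Slfn8*, *Slfn10-ps*, *Slfn2*, *Slfn1*, *Slfn4*, *Slfn3* and *Slfn14*. *Slfn9*, which was not called, lies between *Slfn5* and *Slfn8*, and *Slfn4* and *Slfn3* lie together at the other end. Of 13 flanking protein-coding genes considered, 7 passed the filter, of which 1 was higher and 4 were lower with DADA. Over all genes tested, 30.9% were called higher and 35.3% lower. The median log2 fold change of the 7 was -0.26, against -0.02 over all genes tested. On the *Slfn14* side, *Ap2b1*, an adaptor of clathrin coats, rose from 40.1 ± 1.45 to 44.5 ± 1.14 FPKM (SD, n = 4 each; log2 fold change 0.15, limma adjusted p = 0.00227). On the same side, *Taf15*, an RNA-binding protein, fell from 116 ± 1.56 to 92.3 ± 2.70 FPKM (SD, n = 4 each; -0.33 on the log2 scale, limma adjusted p = 1.56e-06). On the *Slfn5* side, *Lig3*, a DNA ligase, had a log2 fold change of -0.31. These 7 flanking genes lay between -0.33 and 0.15, below *Slfn1*, *Slfn2*, *Slfn5* and *Slfn8* on this scale.

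**Figure D4:**
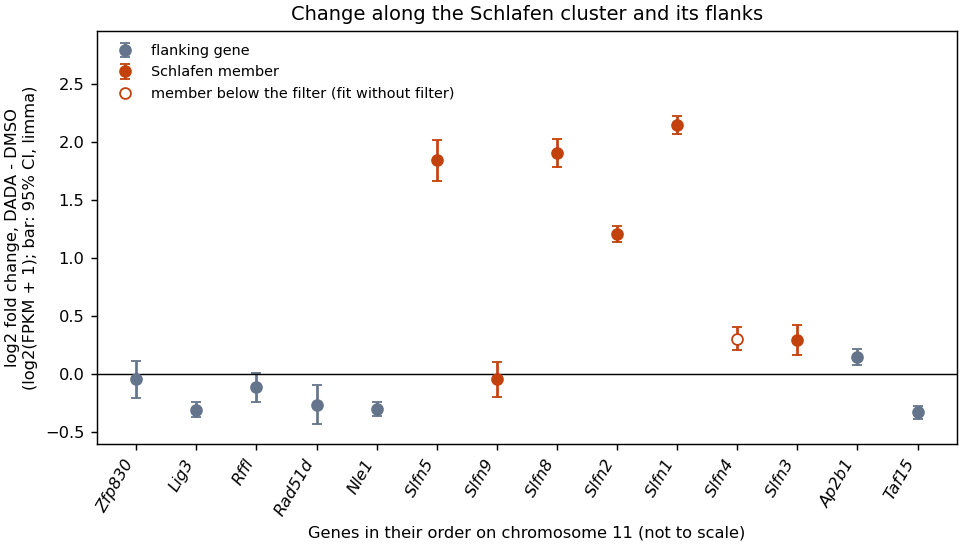
Log2 fold change with its 95% confidence interval (limma, log2(FPKM + 1)) for Schlafen members (orange) and flanking genes that passed the filter (grey), in chromosome order; the open point, *Slfn4*, is from the fit without the filter. *Slfn5*, *Slfn8*, *Slfn2* and *Slfn1* lie at 1.84, 1.90, 1.21 and 2.14, and *Slfn9* between 2 of them at -0.04.

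Since Schlafen genes are known as interferon targets, 2 lists of the interferon pathway were set beside them. Of 20 genes of interferon receptors and signalling, 19 passed the filter, with 13 higher and 3 lower with DADA and a median log2 fold change of 0.21. Over all genes tested, 30.9% were called higher and 35.3% lower. The 13 include *Usp18*, which passed the filter only through its DADA libraries and so had to differ. The receptor chain *Ifnar1* fell from 41.4 ± 0.607 to 31.9 ± 0.993 FPKM (SD, n = 4 each; log2 fold change -0.37, limma, adjusted p = 1.49e-06), and the transcription factor *Irf1* had a log2 fold change of -0.18. The largest rises were in *Usp18*, which removes ISG15 and damps receptor signalling (4.27, from under 1 FPKM in every DMSO library), and in the transcription factor *Irf7* (3.83). Of 20 interferon effectors, 19 passed, all of them higher with DADA, but 9 of these were under 1 FPKM in every DMSO library and passed only through DADA. The other 10 reached 1 FPKM with DMSO in at least 1 library. *Isg15*, a ubiquitin-like modifier, and *Ifit1*, which binds foreign RNA and is one of the 9 that passed only through DADA, had log2 fold changes of 5.16 and 3.68. In comparison, the Schlafen members that passed the filter ranged from -0.04 to 2.14.

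Transfer RNA cleavage and T cell quiescence are the settings in which *Slfn2* is best known. Of all genes tested, 30.9% were called higher and 35.3% lower with DADA, with a median log2 fold change of -0.02. Of 17 genes of transfer RNA cleavage and processing, 11 passed the filter, with 1 higher and 7 lower and a median of -0.18. *Rnh1*, the ribonuclease inhibitor that binds angiogenin, rose from 62.6 ± 1.58 to 102 ± 4.54 FPKM (SD, n = 4 each; log2 fold change 0.69, limma, adjusted p = 5.58e-08). *Dicer1*, a ribonuclease of small RNA biogenesis, and *Mettl1*, a transfer RNA methyltransferase, had log2 fold changes of -0.44 and -0.39. Of 21 genes linked to T cell quiescence, 19 passed, with 14 higher and 1 lower and a median of 0.40. The largest rises among genes with a mean of 5 FPKM or more were in *Vsir*, which encodes the inhibitory receptor VISTA, from 7.52 ± 0.391 to 15.9 ± 0.376 FPKM (log2 fold change 0.99, limma, adjusted p = 1.74e-08), and in *Cdkn1b*, which encodes the cell cycle inhibitor p27 (0.90). *Klf2*, a transcription factor of quiescent T cells, had the list's largest log2 fold change (1.13, limma adjusted p = 4.18e-06), from 0.842 ± 0.164 to 3.03 ± 0.508 FPKM (SD, n = 4 each). With DMSO it was at 0.682 to 1.03 FPKM, so *Klf2* met the filter through its DADA libraries. The count of 14 higher includes it, and its call lends no support. The list's single fall was in *Klf4* (-0.21, limma, adjusted p = 0.0175), and both genes lie under that mean and were named after their values were seen.

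**Figure D5:**
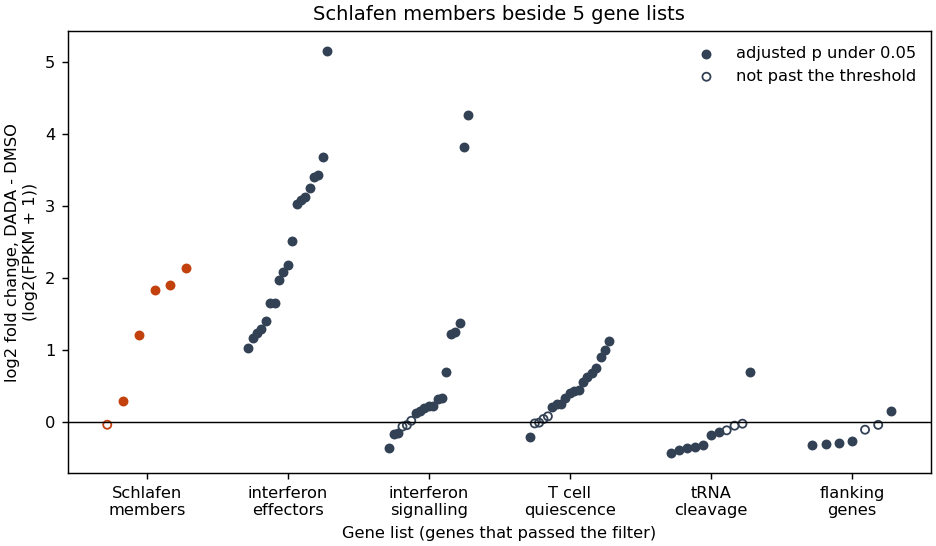
Log2 fold change (log2(FPKM + 1)) of each gene that passed the filter in the Schlafen family (orange) and 5 gene lists (dark), filled where the adjusted p was under 0.05. Interferon effectors spread upwards to 5.16, and 1 Schlafen member, *Slfn9*, is an open point at -0.04.

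For each of the 6 members, the genes with the most similar profile were found by the root mean square difference of mean-centred log2(FPKM + 1) over the 8 libraries. *Slfn1* was closest to *Gem*, a small GTPase, at a distance of 0.0338, and to *Gbe1*, the glycogen branching enzyme, at 0.0440. *Slfn2* was closest to *Fam162a*, a mitochondrial protein (0.0346), and to the interferon-induced *Ifi27* (0.0475). *Slfn8* was closest to *Ndrg2* (0.0575) and to the IL-10 receptor chain *Il10ra* (0.0618). *Slfn5*, whose replicates spread more, was closest to *Ifi213* (0.0775) and *Bend5* (0.0796). *Slfn3* was closest to *Spire1* (0.0431) and *Rab9* (0.0435), and *Slfn9* to *Plekhm3* (0.0464) and *Tbccd1* (0.0464). The distance reflects the size and shape of the change in log2(FPKM + 1), where the added 1 FPKM shrinks changes of low values. *Ifi213* was at a mean of 0.114 FPKM with DMSO and 3.04 FPKM with DADA, against 0.806 and 5.47 FPKM for *Slfn5*. Their plain ratios thus differ more than the distance shows. The distance ranks genes over these 8 libraries and says nothing of shared control.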

How the data were processed

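Per the labels, RNA of 8 mouse CD8+ T cell cultures was sequenced as mRNA libraries, and reads were paired ends of 150 bp. The table the authors deposited holds FPKM. The submitters' processing notes list HISAT2 2.0.5 and StringTie 1.3.3, among other tools, with no roles. The values hold no counts, and only 41.7% to 47.2% of low values of genes with 1 transcript lay within 10% of a whole fragment (20% by chance), so depth was estimated and counts were not modelled. FPKM were used as deposited in limma 3.58.1 (R 4.3.3; eBayes with a mean-variance trend), tested on simulated data. Pseudocount, filter, scaling, trend, replicate block and left-out libraries were varied. Transcripts came from GENCODE M21 and promoters from RefSeq. The rule for members uses symbols, but the family and the lists were picked with earlier results of these data known. Named genes were every member, the 2 largest called changes in each direction per list at a mean of 5 FPKM or more, and the 2 nearest profiles per member, without assembled transcripts. 1 flanking gene is not reported here.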

Additional observations from a re-analysis of the deposited data

Results flagged for a closer look

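In 2 of 14 groups of 4 values, 7 members in 2 conditions, 1 library lay far from the other 3, which chance gives in about 5% of groups. *Slfn8* in DMSO 2, at 4.03 FPKM, stood above the other DMSO libraries at 3.32 to 3.40 FPKM, with a gap of 0.886 of the group's range. *Slfn9* in DADA 2, at 5.46 FPKM, lay below the other DADA libraries, with a gap of 0.856 of the range. Both exceed Dixon's critical value for 4 values at 95%. Without DMSO 2 the *Slfn8* change stayed called, and without DADA 2 the *Slfn9* change remained uncalled.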

How the results depend on the processing

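Under the other scalings, pseudocount, filters and trend, and with each library left out, *Slfn1*, *Slfn2*, *Slfn3*, *Slfn4*, *Slfn5* and *Slfn8* kept their direction and their call wherever they were fitted. *Slfn5* and *Slfn4* did not reach a mean of 5 FPKM and have no value there. *Slfn9* was never called, at -0.0844 to 0.016 with a library left out, positive only without DADA 2 (0.016). Same-numbered libraries correlated between -0.12 and 0.10 in their deviations, within the -0.27 to 0.13 of all DMSO and DADA pairs. No pairing by number was thus seen, but the mice of origin are not given, so a pairing is not excluded. With the replicate block, 6995 genes were called against 7064 without it, and no member's call changed. With a pseudocount of 0.1 the change between *Slfn1* and *Slfn5* was -0.39, between *Slfn1* and *Slfn8* 0.0916 and between *Slfn5* and *Slfn8* 0.48, and with plain FPKM, added after seeing the data, -0.52, 0.0708 and 0.59. With a library left out, the same 3 pairs ranged from 0.25 to 0.36, 0.16 to 0.28 and -0.14 to 0.0168 (positive only without DADA 3), and *Slfn3* and *Slfn9* from 0.28 to 0.40; calls lost had an adjusted p of 0.0612 (exact permutation test). A mean of at least 5 FPKM left 12 interferon effectors higher and 0 quiescence genes lower, since fewer genes were tested, and no filter gave 3 transfer RNA genes higher. Of the 7 CD8+ T cell markers, 6 were called higher without a filter, with quantile normalization, without the trend and with some libraries left out. The median change of all genes lay between -0.05 and 0.01 under every scaling. Levels such as that of *Slfn4* are limited by depth.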
